A study of Mus musculus with 7 samples.

Results

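Notch signalling was described through 9 genes in prostate tumours of mice given RAPPD or vehicle: the receptors Notch1, Notch2 and Notch3, the ligands Jag1 and Jag2, and the target genes Hes1, Hey1, Heyl and Nrarp. They were chosen by gene symbol, as every probe of the array that the platform annotation pairs with 1 of these symbols, which gave 10 probes of 45128 on the array and 9 genes of 19026 with a symbol. Notch2 had 2 probes and every other gene had 1. The 4 RAPPD tumours and the 3 vehicle tumours were allografted NPK prostate tumours, and their hosts were athymic nude NU/J mice, animals with no working thymus. All mice were dosed once a day for 5 days, with the tumours taken on the fifth. The labels give neither the age of the mice nor the meaning of RAPPD. From general knowledge of such tumours, and not from the labels, RAPPD is taken to be rapamycin, an inhibitor of mTOR, combined with an inhibitor of the kinase MEK. Both groups are tumours of the same NPK model, and the host mice supply vessels, connective tissue and innate immune cells to the tumour. Biotin-labelled RNA of each tumour was read on 1 Illumina mouse bead array.

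Notch receptors are transmembrane proteins that are activated by ligands of the Jagged and Delta families on a neighbouring cell. Ligand binding lets ADAM proteases and then gamma-secretase cut the receptor, and its freed intracellular part joins the DNA-binding protein RBPJ and a Mastermind coactivator to switch on genes such as those of the HES and HEY repressors and Nrarp, which acts back on the pathway as an inhibitor. In the prostate the pathway is known for its part in the development of the gland and in the balance between basal and luminal epithelial cells, and in vessels it acts in endothelial cells and, through Notch3, in the mural cells around them. The promoters of a target that fell (Nrarp) and of a receptor that was not called (Notch1) are shown for comparison, from 250 bases before to 50 bases after the gene start, 5′ to 3′ on the gene's strand, from RefSeq's GRCm38.p6 table, in which 6 of the 9 genes were matched. The Nrarp promoter is at chr2:25180508-25180807 on the plus strand and the Notch1 promoter at chr2:26503773-26504072 on the minus strand, and capitals mark the E-box CACGTG, a sequence bound by several basic helix-loop-helix factors, which the Notch1 window does not hold.
Nrarp: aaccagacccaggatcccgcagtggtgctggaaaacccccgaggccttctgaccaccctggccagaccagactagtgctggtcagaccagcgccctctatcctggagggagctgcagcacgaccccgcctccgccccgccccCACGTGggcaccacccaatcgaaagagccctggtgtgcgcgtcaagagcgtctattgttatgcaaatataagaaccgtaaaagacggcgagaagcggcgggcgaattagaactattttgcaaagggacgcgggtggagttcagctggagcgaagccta
Notch1: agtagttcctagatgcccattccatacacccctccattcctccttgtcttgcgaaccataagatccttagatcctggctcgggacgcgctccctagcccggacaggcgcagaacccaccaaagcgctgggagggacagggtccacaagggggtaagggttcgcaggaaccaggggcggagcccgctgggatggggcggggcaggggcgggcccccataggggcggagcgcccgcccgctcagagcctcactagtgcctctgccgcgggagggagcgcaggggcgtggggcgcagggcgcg
The core sequence bound by RBPJ, TGGGAA, was searched on both strands and was found in 0 of the 6 promoters of these genes, against 25.6% of all 32851 promoters in the table. Only Nrarp among these 6 is a target gene, the rest being receptors and ligands, so the count says little about targets. The E-box CACGTG, which reads the same on both strands and shares no overlap with TGGGAA here, was found in 1 of the 6, that of Nrarp, starting 108 bases before the gene start, against 7.15% of all promoters. Hes1, Hey1 and Heyl were not matched.

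The deposited values were background-subtracted intensities on a linear scale. A probe was taken as above background on an array when its intensity exceeded a limit of 13.8 to 15.4, set for each array from the spread of the values below 0. Between 20323 and 21330 probes were above background per array. The 21249 probes above background on at least 3 of the 7 arrays were tested, 7 of the 10 probes of the Notch genes among them. Of the 9 genes, 7 had a tested probe and 2, Jag1 and Heyl, did not. The precision of these arrays is limited by how few tumours there are. Pearson's r across the tested probes was 0.970 to 0.984 between RAPPD arrays, 0.958 to 0.975 between vehicle arrays and 0.912 to 0.950 across groups. As a check of the labelled tissue, the luminal keratin Krt8 was above background on 7 of 7 arrays, while the prostate genes Hoxb13, Pbsn and Tmprss2 were below it on all arrays.

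The target genes Hey1, Nrarp and Hes1 fell in RAPPD tumours, while no receptor or ligand passed the test in either direction. Heyl was above background on vehicle 3 alone and was not tested. Hey1 was 3.98-fold, Nrarp 3.51-fold and Hes1 2.16-fold lower. The size of these falls depended on the processing: in the submitters' processed values, whose transform is unknown, the log2 differences were -0.43 for Hey1, -0.56 for Nrarp and -0.91 for Hes1, and without background correction they were -2.52, -2.06 and -1.13. Of the 7 tested probes 3 were called lower and 0 higher at an adjusted p under 0.05, where 11.0% of all tested probes were called lower and 10.9% higher. Adjusted p-values are from limma with Benjamini-Hochberg adjustment over all tested probes, and log2 differences are RAPPD minus vehicle on quantile-normalised values to which an offset of 16 had been added, which understates changes of dim probes. The median difference over the 7 tested probes was -0.10, and over all tested probes 0.02.

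**Figure D1:**
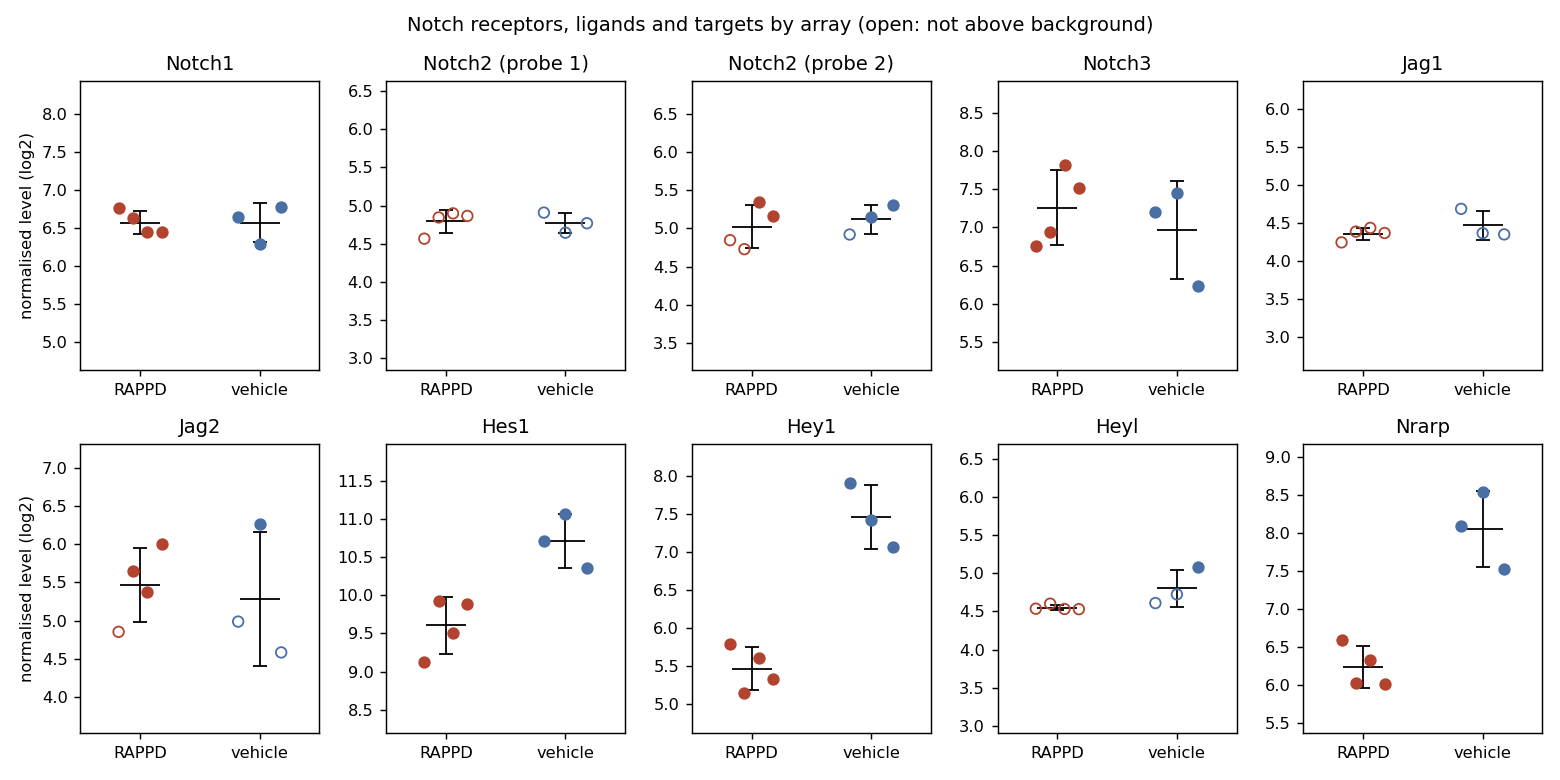
Normalised log2 level (vertical axis, spanning the same range of log2 units in every panel) of each of the 10 probes on the 4 RAPPD arrays (left, red) and the 3 vehicle arrays (right, blue), with the group mean and SD as bars; open points were not above background. For Hes1, Hey1 and Nrarp every RAPPD array lies below every vehicle array, while the groups overlap for the receptors and ligands.

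Hey1 encodes a repressor of the hairy family that Notch switches on in many cell types. Its intensity was 39.3, 18.9, 32.6 and 24.4 on RAPPD arrays 1 to 4, against 224.9, 149.5 and 116.8 on vehicle arrays 1 to 3. All arrays were above background, the RAPPD arrays only little so, and the groups did not overlap. On the log2 scale Hey1 averaged 5.47 ± 0.28 in RAPPD tumours (SD, n = 4) and 7.46 ± 0.42 in vehicle tumours (SD, n = 3). It fell by 1.99 ± 0.24 (SE), with a limma adjusted p of 6.26e-04. A fall at least as large was seen for 1.47% of all tested probes.

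Nrarp encodes a small ankyrin-repeat protein that is induced by Notch and limits it. Its intensity was 81.7, 49.4, 65.5 and 48.4 on RAPPD arrays 1 to 4, against 257.3, 354.8 and 166.3 on vehicle arrays 1 to 3. Every RAPPD tumour was below every vehicle tumour. The log2 level averaged 6.24 ± 0.28 in RAPPD tumours (SD, n = 4) and 8.05 ± 0.50 in vehicle tumours (SD, n = 3), and it fell by 1.81 ± 0.26 (SE, limma adjusted p = 0.00153).

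Hes1, a repressor that is the classic target of the pathway and also responds to other signals, was well above background on every array. Its intensity was 534.3, 943.8, 708.9 and 932.5 on RAPPD arrays 1 to 4, against 1680.0, 2132.9 and 1303.8 on vehicle arrays 1 to 3. The groups did not overlap, although RAPPD 2 and vehicle 3 lay 0.44 log2 units apart. Hes1 averaged 9.61 ± 0.38 in RAPPD tumours (SD, n = 4) and 10.72 ± 0.35 in vehicle tumours (SD, n = 3), and it fell by 1.11 ± 0.25 (SE, limma adjusted p = 0.0128).

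Heyl, another member of the HEY group, was at the edge of detection. Its intensity was 0.0090, 2.69, -0.059 and -0.25 on RAPPD arrays 1 to 4, against 3.22, 7.85 and 17.2 on vehicle arrays 1 to 3. It was above background on vehicle 3 alone, so it was not tested and no fold is given. Its groups were only 0.0079 log2 units apart, between RAPPD 2 and vehicle 1, both below background. Groups that did not overlap, as for Hey1, Nrarp and Hes1, were common in these data: RAPPD arrays lay wholly below vehicle arrays for 16.2% of all tested probes.

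The target genes did not order the tumours in the same way. Among vehicle tumours, vehicle 3 was the lowest for Hey1, Nrarp and Hes1, while Hey1 was highest on vehicle 1, and Nrarp and Hes1 were highest on vehicle 2. Among RAPPD tumours, RAPPD 1 had the highest Hey1 and Nrarp and the lowest Hes1. Heyl was highest on vehicle 3, the vehicle array that was lowest for the other targets.

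By the array positions in the labels, vehicle 3 shared its chip with the 4 RAPPD arrays, while the chips of vehicle 1 and vehicle 2 held no other array of the series. With chip as a fixed block the vehicle arm is vehicle 3 alone, since vehicle 1 and vehicle 2 are absorbed by their own chips. The spread then comes from the RAPPD arrays, no spread between vehicle tumours enters the p-values, and vehicle 3 is assumed to vary like the RAPPD arrays. Within the shared chip, which sets the 4 RAPPD arrays against vehicle 3, Hey1 fell by 1.59 ± 0.29 (SE) and Nrarp fell by 1.29 ± 0.29 with chip as a fixed block (limma adjusted p = 0.0275 and 0.0459). Hes1 fell by 0.76 ± 0.35 in that fit and was not called (limma adjusted p = 0.219), and there 4.48% of all tested probes were called lower. With chip as a random block all 3 were called, with differences of -1.87 for Hey1, -1.65 for Nrarp and -0.999 for Hes1 (limma adjusted p = 0.00154, 0.00383 and 0.0333).

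**Figure D2:**
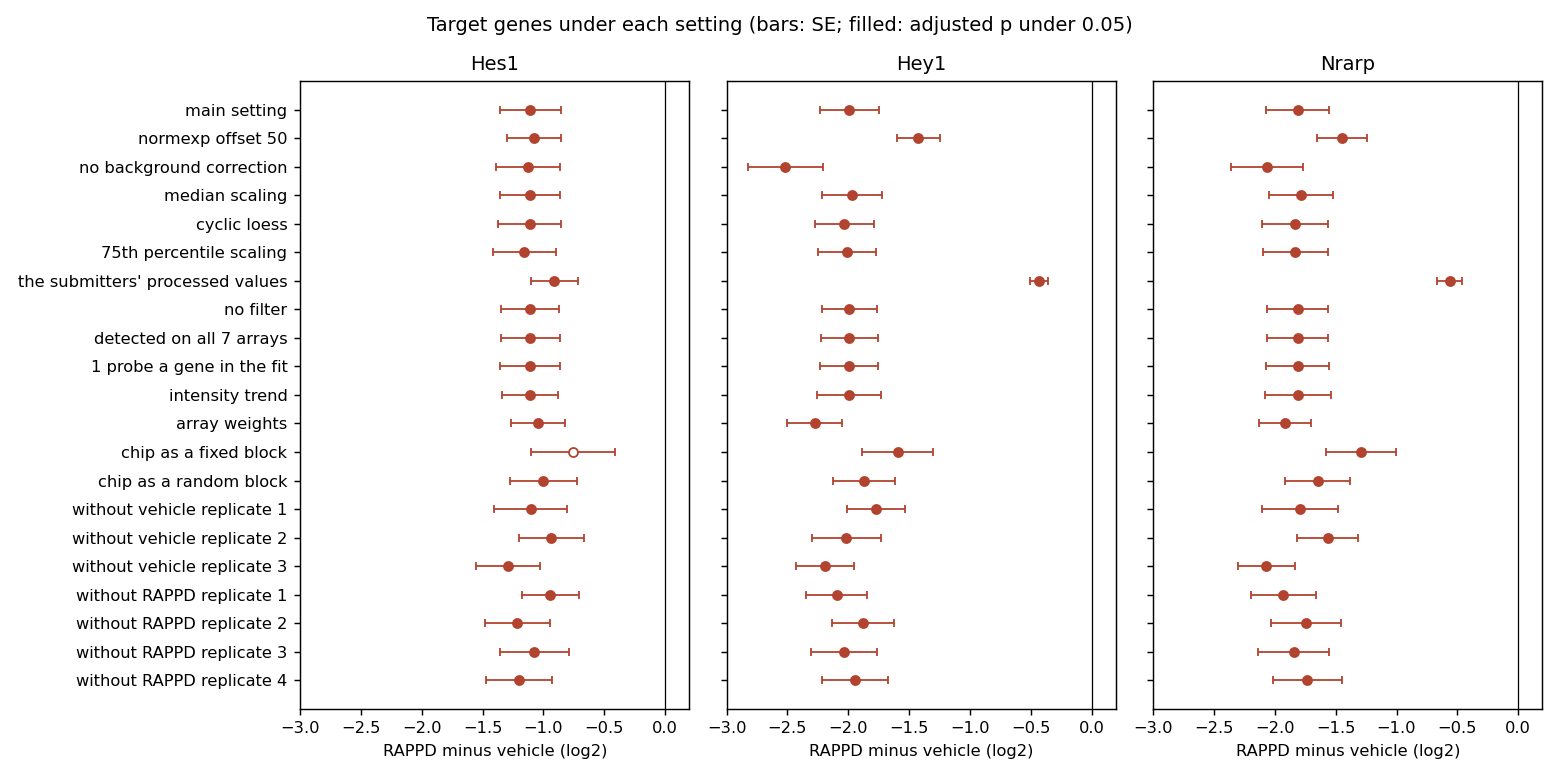
RAPPD minus vehicle difference (log2, horizontal axis) of Hes1, Hey1 and Nrarp under the main setting and each alternative except the changed thresholds (rows), with the SE as bars. Filled points have an adjusted p under 0.05. All differences lie below 0, the open point is Hes1 with chip as a fixed block, and the smallest falls of Hey1 and Nrarp are those in the submitters' processed values, -0.43 and -0.56.

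In bulk tumour RNA, fewer cells of a type and less RNA per cell cannot be told apart. Counts of markers called stand beside 12.7% of all genes tested called lower and 10.6% called higher. Of 5 tested luminal epithelial markers 2 were lower (Krt8, -2.16, and Krt18, -2.83) and 0 were higher. The summed intensity of the 5 was 10455, 3959, 3343 and 4496 on RAPPD arrays 1 to 4, against 29081, 26078 and 17560 on vehicle arrays 1 to 3. Such sums add linear intensities, so the brightest probe weighs most. In vehicle tumours Krt8 averaged 14.14 on the log2 scale, against 11.01 for Krt19 and 10.72 for Krt18, the next brightest. RAPPD 1 had the highest luminal sum of the RAPPD arrays, as for Hey1 and Nrarp, whereas Hes1 was lowest on RAPPD 1. Vehicle 3 had the lowest luminal sum of the vehicle arrays, as for Hey1, Nrarp and Hes1. Cdh1 differed by 0.05 ± 0.32 (SE, limma adjusted p = 0.926), and Epcam and Cldn4 were below background on all arrays. Neutrophil markers moved the other way, with 5 of 6 higher and summed intensities of 20342 to 61802 on RAPPD arrays, against 2810 to 11076 on vehicle arrays. Red blood cell markers were higher in 3 of 3, with sums of 24566 to 57452 on RAPPD arrays, against 4278 to 9540 on vehicle arrays. Of 8 fibroblast markers 2 were higher (Col1a2, 2.57, and Pdgfra, 1.28) and 0 lower, with sums of 26332 to 66403 on RAPPD arrays, against 18895 to 38385 on vehicle arrays. Of 5 macrophage markers 1 was lower (Mrc1, -1.22) and 0 higher, and neither of 2 basal epithelial markers was called. Within the groups, neutrophil and fibroblast sums were lowest on RAPPD 1 and highest on vehicle 3, and red blood cell sums were lowest on both. Basal sums, as the luminal ones, were highest on RAPPD 1 and lowest on vehicle 3. The part of any of these cell types in the lower target levels was not tested.

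Endothelial and mural cells, in which Notch is also active, were followed through their own markers. Of 10 endothelial markers 2 were lower (Tek, -0.84, and Vwf, -0.79) and 0 higher. Over all genes tested, 12.7% were called lower and 10.6% higher. The summed intensity of the endothelial markers was 3593 to 5853 on RAPPD arrays, against 4002 to 4610 on vehicle arrays, so that the groups overlapped. Of 9 smooth muscle and pericyte markers 2 were higher (Myh11, 1.33, and Rgs5, 0.84) and 1 was lower (Pdgfrb, -1.11). Their sum was 15441 to 25460 on RAPPD arrays, against 13163 to 25445 on vehicle arrays, and Cnn1 was below background on all arrays. Acta2, at 13.81 on the log2 scale in vehicle tumours, was the brightest of these markers and weighs most in the sum. Skeletal muscle markers set vehicle 2 apart, with a sum of 39738, against 43.5 to 75.4 on RAPPD arrays and 28.8 and 116.2 on vehicle 3 and vehicle 1. Without vehicle 2 the differences were -2.02 for Hey1, -1.57 for Nrarp and -0.93 for Hes1 (limma adjusted p = 0.0038, 0.0059 and 0.0475).

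**Figure D3:**
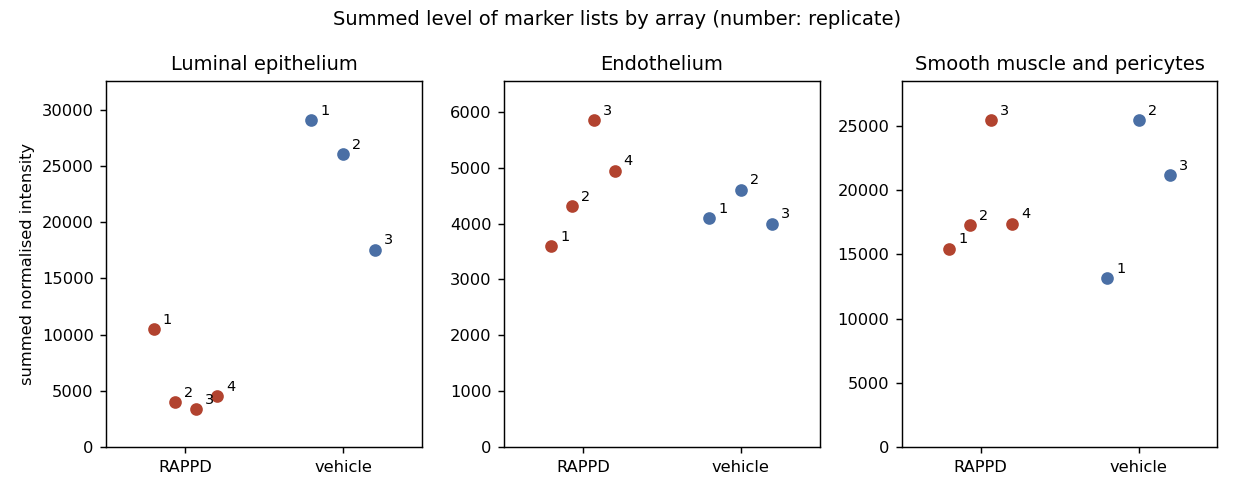
Summed normalised intensity (vertical axis, from 0) of the tested luminal, endothelial and smooth muscle and pericyte markers on each RAPPD array (left, red) and vehicle array (right, blue), numbered by replicate. Luminal sums reach at most 10455 on RAPPD arrays and at least 17560 on vehicle arrays, while the other sums overlap. Krt8 weighs most in the luminal sum and Acta2 in the smooth muscle and pericyte sum.

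The receptors were measured at levels that overlapped between the groups. Notch1 had an intensity of 94.2, 84.8, 72.5 and 71.0 on RAPPD arrays 1 to 4, against 85.2, 60.3 and 93.4 on vehicle arrays 1 to 3. On the normalised log2 scale the highest array was vehicle 3 and the lowest vehicle 2, so the RAPPD arrays lay within the range of the vehicle arrays. Its difference was 0.0015 ± 0.18 (SE, limma adjusted p = 0.996), with a 95% interval of -0.41 to 0.41, and it averaged 6.57 ± 0.15 in RAPPD tumours (SD, n = 4) and 6.57 ± 0.25 in vehicle tumours (SD, n = 3).

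Of the tested probes of Notch1, Notch2 and Notch3, that of Notch3 varied most between tumours of a group, with SDs of 0.49 log2 units in RAPPD tumours and 0.65 in vehicle tumours. Its intensity was 93.6, 109.3, 209.5 and 167.5 on RAPPD arrays 1 to 4, against 132.4, 155.2 and 58.6 on vehicle arrays 1 to 3. Vehicle 3 was the lowest array and RAPPD 3 the highest. The difference was 0.29 ± 0.34 (SE, limma adjusted p = 0.584) with a 95% interval of -0.48 to 1.07. Within the shared chip it was 1.03 ± 0.42 (SE, limma adjusted p = 0.180).

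Notch2 was dim on both of its probes. The probe ILMN_2980247 had an intensity of 10.4, 7.06, 25.0 and 19.7 on RAPPD arrays 1 to 4, against 13.1, 19.5 and 23.4 on vehicle arrays 1 to 3, and was above background on 2 RAPPD and 2 vehicle arrays. It differed by -0.10 ± 0.20 (SE, limma adjusted p = 0.764), with a 95% interval of -0.55 to 0.35. The probe ILMN_2678002, at 1.13 to 12.2 on RAPPD arrays and 4.93 to 12.8 on vehicle arrays, was below background on all 7 arrays and was not tested.

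Neither Jagged ligand was called. Jag2 had an intensity of 10.6, 34.6, 26.0 and 48.2 on RAPPD arrays 1 to 4, against 15.0, 59.2 and 2.21 on vehicle arrays 1 to 3, and was above background on 3 RAPPD arrays and 1 vehicle array. Vehicle 2 was the highest array and vehicle 3 the lowest, so the vehicle tumours spanned the whole range of the RAPPD tumours. The difference was 0.19 ± 0.40 (SE, limma adjusted p = 0.772), with a 95% interval of -0.71 to 1.09. Within the shared chip it was 0.89 ± 0.42 (SE, limma adjusted p = 0.228).

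Jag1 was read by a single probe that was below background on all 7 arrays. Its intensity was -21.9, -8.03, -5.04 and -9.13 on RAPPD arrays 1 to 4, against 6.08, -8.65 and -10.6 on vehicle arrays 1 to 3. No level and no change can be given for Jag1 at this sensitivity.

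The levels of targets and receptors were also set against each other within each array, as the log2 ratio of a target to Notch1 or Notch3. These 6 pairs were chosen after the values had been seen, so the ratios are a description, and whether targets and receptors changed by different amounts was not tested. The ratio to Notch1 differed between RAPPD and vehicle tumours by -1.99 for Hey1, -1.81 for Nrarp and -1.11 for Hes1, and the ratio to Notch3 by -2.28, -2.10 and -1.40. The Hes1 to Notch1 ratio came closest between the groups, at 2.36 to 3.43 on RAPPD arrays and 3.58 to 4.78 on vehicle arrays, with vehicle 3 the lowest vehicle array.

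The rest of the pathway was followed through 64 further genes, of which 46 were tested by their brightest probe. Of these 46, 3 were called lower and 5 higher (17.4%), where 12.7% of all genes tested were called lower and 10.6% higher (23.3% in all). Their median difference was 0.23, against -0.01 over all genes tested. The share called was thus not above that of all genes. The remaining genes comprised 12 with no probe past the filter on dim values and 6 that were not analysed here.

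**Figure D4:**
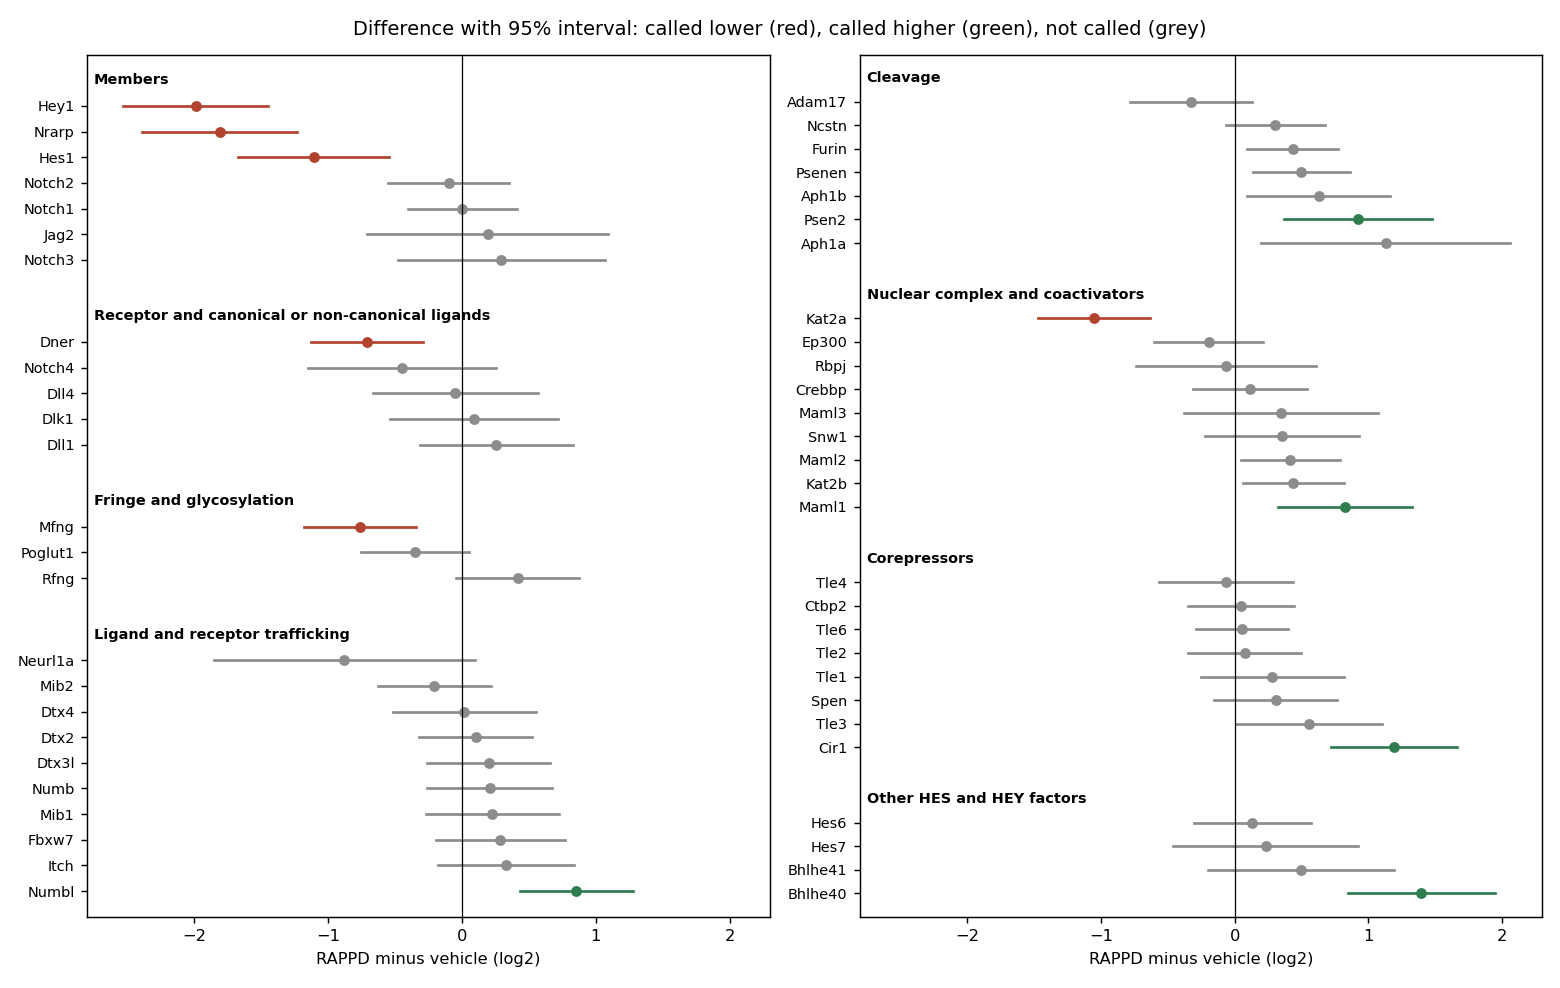
RAPPD minus vehicle difference (log2, horizontal axis) with its 95% interval for the 7 tested probes of the Notch receptors, ligands and targets (top left) and the 46 other pathway genes tested, by role; red was called lower, green called higher and grey not called. Hey1, Nrarp and Hes1 have the lowest values of all genes shown.

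Among the other receptor and ligand genes, 1 of 5 was called. Dner, a neuronal Notch ligand, fell by 0.71 ± 0.19 (SE, limma adjusted p = 0.0241) and was above background on 1 RAPPD and 3 vehicle arrays. The vascular receptor Notch4 differed by -0.45 ± 0.31 (SE, limma adjusted p = 0.336, 95% interval -1.15 to 0.25). The Delta ligands Dll1 and Dll4 differed by 0.26 ± 0.25 and -0.05 ± 0.27 (SE, limma adjusted p = 0.511 and 0.916). Both were dim, with log2 means of 5.58 (RAPPD) and 5.33 (vehicle) for Dll1 and 5.31 and 5.36 for Dll4. Dll1 was above background on 4 RAPPD and 3 vehicle arrays, and Dll4 on 3 and 3. Of the fringe and glycosylation genes, which set how a receptor reads its ligands, 1 of 3 was called. The fringe gene Mfng, above background on 0 of 4 RAPPD arrays and 3 of 3 vehicle arrays, was at least 1.26-fold lower (limma adjusted p = 0.0186), while Lfng was below background on all arrays.

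Of 10 genes that route ligands and receptors through the cell, 1 was called, the Numb relative Numbl, which rose by 0.85 ± 0.19 (SE, limma adjusted p = 0.01155). Of 7 cleavage genes 1 was called. The gamma-secretase subunit gene Psen2 rose by 0.92 ± 0.25 (SE, limma adjusted p = 0.0258), and its difference within the shared chip was 0.42 (limma adjusted p = 0.406). The sheddase Adam17 differed by -0.33 ± 0.20 (SE, limma adjusted p = 0.286). For 5 of the 7 cleavage genes every RAPPD array lay above every vehicle array, as it did for 15.8% of all genes tested. The other 4 of these were not called and are named after their values were seen: the gamma-secretase subunit genes Aph1a (1.13), Aph1b (0.63) and Psenen (0.50) and the proprotein convertase Furin (0.43), with limma adjusted p of 0.0817, 0.0900, 0.05345 and 0.0680.

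In the nuclear complex 2 of 9 genes were called. The DNA-binding partner of the receptors, Rbpj, differed by -0.07 ± 0.30 (SE, limma adjusted p = 0.900, 95% interval -0.73 to 0.60). Only 1 of its 3 probes was tested. That probe was dim, with log2 means of 5.34 (RAPPD) and 5.40 (vehicle), and above background on 3 RAPPD and 3 vehicle arrays. The coactivator Maml1 rose by 0.82 ± 0.22 (SE, limma adjusted p = 0.0273), and a second probe of the gene differed by 0.14. The acetyltransferase Kat2a fell by 1.05 ± 0.18 (SE, limma adjusted p = 0.00423). With chip as a fixed block, where vehicle 3 is again the only vehicle array, Dner, Mfng, Psen2, Maml1 and Kat2a were not called (limma adjusted p of 0.0849, 0.2045, 0.406, 0.222 and 0.0565). The differences of Dner (-0.82) and Kat2a (-1.08) were no smaller there, with larger SEs of 0.24 and 0.26, while those of Mfng (-0.51), Psen2 (0.42) and Maml1 (0.56) were smaller. Of 8 corepressors 1 was called, the RBPJ-binding corepressor Cir1, which rose by 1.19 ± 0.21 (SE, limma adjusted p = 0.00422). The other probes of Cir1 differed by 0.13 and 1.05, with a smallest limma adjusted p of 0.00757. Of the other 4 tested factors of the HES and HEY superfamily 1 was called, Bhlhe40, a repressor also of the circadian clock, which rose by 1.40 ± 0.25 (SE, limma adjusted p = 0.00419). Against vehicle 3 alone, Numbl, Cir1 and Bhlhe40 had limma adjusted p of 0.0228, 0.0316 and 0.0493. Tle3, a corepressor, and Bhlhe41, a relative of Bhlhe40, are named after their values were seen: they were called with the block, at 1.10 and 1.17 (limma adjusted p = 0.0333 and 0.0485), against 0.55 and 0.50 without the block (limma adjusted p = 0.136 and 0.284). Hes5 and Hey2, further targets of the pathway, did not pass the filter.

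Of 11084 genes compared with Hey1, the Notch gene with the smallest p, the 3 whose centred log2 levels lay nearest over the 7 arrays were the centromere gene Cenps, the mitotic kinase cofactor gene Bora and Prr11, at root mean square distances of 0.16, 0.18 and 0.19 log2 units. The distance spans both groups, so it favours genes with a difference near that of Hey1, and likeness within a group was not tested. The differences of these genes were -1.84 ± 0.21 (Cenps), -2.23 ± 0.23 (Bora) and -2.12 ± 0.25 (Prr11), where that of Hey1 was -1.99 (SE, limma adjusted p = 4.42e-04, 3.03e-04 and 5.75e-04). Prr11 was below background on all 4 RAPPD arrays, which gives a fall of at least 3.33-fold.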

How the data were processed

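Intensities were deposited by the authors as 1 background-subtracted value per probe and array on a linear scale, without detection p-values or control probes. Of tools, the submitters' processing notes name BeadStudio and lumi, with no version or role. The authors' processed log2 values, whose exact transform and centring are unknown, served only as an alternative. Apart from GRCm38.p6 for the promoter windows, no genome build is given in the sources used here. Background was corrected with normexp (mean 0, SD 8.41 to 9.35 per array from the values below 0), an offset of 16 was added, and arrays were quantile normalised. A probe was above background past the upper 0.05 tail of that SD. Probes above it on at least 3 arrays were fitted with limma 3.58.1 in R 4.3.3 (lmFit, eBayes, two-sided; statmod 1.5.0 for the random block), RAPPD minus vehicle, with Benjamini-Hochberg adjustment over 21249 probes. Gene symbols came from the platform annotation: 34776 had 1 symbol, 18 several and 10334 none, and 0 symbols changed on matching to RefSeq (34698 matched). A gene was represented by its brightest probe.

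Members and lists were chosen with earlier results of these data known. Named were every member, called pathway genes (up to 3 per role and direction), 7 pathway genes chosen for their role and the 3 nearest to the member with the smallest p. The labels do not say that tumours came from separate donors, so p-values cover only the spread between samples. The fit was tested on data simulated without chip differences, with changes planted in brighter probes only. Neither chip differences nor changes of probes as dim as Hey1 are covered by that test. Alternatives were offsets, scalings, filters, probe choice, variance models, chip as a block, thresholds and leaving out each array. Of the 7 pathway genes chosen for their role, 1 is not reported here.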

Additional observations from a re-analysis of the deposited data

Results flagged for a closer look

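For 2 of the 10 probes, 1 RAPPD array stood apart from the other RAPPD arrays by Dixon's criterion, which chance meets in about 5% of groups. The Notch2 probe ILMN_2678002 was lower on RAPPD 1, at a log2 level of 4.56 against 4.84 to 4.90 on the other RAPPD arrays (a gap of 0.839 of the range). Heyl was higher on RAPPD 2, at 4.60 against 4.53 to 4.54 (0.913 of the range). Both probes were below background on all 4 RAPPD arrays, and neither was tested.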

How the results depend on the processing

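Hey1 and Nrarp were called lower under all 22 alternatives and Hes1 under 20, the exceptions being chip as a fixed block and a threshold of 0.01, where Hes1 had an adjusted p of 0.219 and 0.0128. Their differences ranged from -2.52 to -0.43 (Hey1), -2.07 to -0.56 (Nrarp) and -1.29 to -0.76 (Hes1); the smallest for Hey1 and Nrarp were in the submitters' processed values. Without each array in turn they ranged from -2.19 to -1.77, -2.07 to -1.57 and -1.29 to -0.93. No other probe was called under any alternative in which it was tested. The number of other pathway genes called lower, 3 in the main setting, was 1 with an offset of 50, the submitters' values, detection on all 7 arrays (fewer genes tested) or a threshold of 0.01, 0 with chip as a fixed block (vehicle 3 as the only vehicle array), and 1 to 3 without each array, being 1 without vehicle 1 or vehicle 3. The number called higher, 5 in the main setting, was 8 with the submitters' values, 9 with array weights, 3 with chip as a random block, 2 at a threshold of 0.01, 10 at 0.1, and 3 to 5 without each array, being 3 without vehicle 1 or RAPPD 3; it was 5 with chip as a fixed block too, 3 of them the same genes. The causes of these moves, beyond fewer genes or arrays, were not tested. The differences in the 6 target to receptor ratios stayed below 0 under every alternative that changes the values (-2.86 to -0.44). These pairs were chosen after the values had been seen, and each ratio contains the fall of its target. Their sign is therefore no check apart from the target falls. No paired analysis was possible because the labels name no pairing of RAPPD with vehicle tumours. The labels give no replicate numbers either, and those used here follow the order of the samples in each group.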

Other observations

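For 2 other pathway genes a second probe was called where the brightest was not. For Tle1, a corepressor that binds HES factors, the brightest probe differed by 0.28 (limma adjusted p = 0.435) and another by 1.21 (0.0066). For Furin, which matures the receptor, the values were 0.43 (0.0680) and 0.90 (0.0378).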
